A study of Homo sapiens with 52 samples.

Results

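The 42 genes described here encode the alpha subunits of hypoxia-inducible factor (HIF), the enzymes that sense oxygen for it, a set of canonical HIF target genes, and the transporters and enzymes of glycolysis. They were chosen by gene symbol, with no measured value in the rule, from the 62696 genes of the count table of the tumour lines and the 61209 genes of the count table of the macrophages. Earlier results of these data were known when they were chosen, so the choice was not blind. The study sequenced RNA from 2 human hepatoblastoma lines, Huh6 and HepG2, and from macrophages derived with a phorbol ester from the human monocytic leukaemia line THP-1. The tumour lines were kept for 48 h with vehicle, with PKF118-310, a compound that disrupts the beta-catenin/TCF complex, or with iMDK, an inhibitor of the growth factor midkine. PKF118-310 was given at 0.2 and 0.3 µM to both lines and at 0.4 µM to Huh6, and iMDK at 5 and 10 µM to both. The macrophages were sorted after 24 h alone, with untreated HepG2 or Huh6 cells, or with tumour cells that had received iMDK at 5 or 10 µM for the 24 h before they were added. Each group had 3 libraries, except HepG2 with PKF118-310 at 0.3 µM, which had 1, and the 52 libraries held 18284605 to 20043105 counted reads each in HepG2, 18172462 to 19912509 in Huh6 and 12623973 to 16940245 in the macrophages. Each tumour group is a single established cell line, and the labels do not state separate cultures, so p-values measure the spread between these libraries, which may be technical.

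In cells with enough oxygen, the prolyl hydroxylases EGLN1 and EGLN3 mark the HIF alpha subunits HIF1A and EPAS1 for destruction. When oxygen falls, or when the hydroxylases are inhibited in other ways, the subunits persist, pair with a constitutive partner and bind a short core sequence in DNA near their target genes. The targets move a cell from respiration towards glycolysis: they raise glucose transport, glycolytic enzymes and lactate output, restrain entry of pyruvate into mitochondria and remove mitochondria by mitophagy. HIF regulates mostly through protein stability, so the messenger level of the subunits themselves carries little information on their activity. Hepatocytes normally make and export glucose, and hepatic tumour cells commonly replace the liver forms of glycolytic enzymes with forms found in other tissues.

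Promoters of 6 genes show what the sequence near the start holds in genes that passed the test in 1 direction in most comparisons with vehicle. They are 3 such genes with a HIF core in the window searched and 3 without one there. Each set ranked first by how often, and then how strongly, its genes moved in 1 direction. Each line gives 250 bases before to 50 bases after the start in RefSeq (GRCh38.p14), 5′ to 3′ on the strand of the gene, and capitals mark ACGTG or GCGTG on either strand, which is the HIF core. P4HA1 lies at chr10:73096817-73097116 (minus strand), BNIP3 at chr10:131981874-131982173 (minus strand), ADM at chr11:10304823-10305122 (plus strand), PFKP at chr10:3067720-3068019 (plus strand), PDK1 at chr2:172555123-172555422 (plus strand) and PGAM1 at chr10:97427568-97427867 (plus strand).
P4HA1: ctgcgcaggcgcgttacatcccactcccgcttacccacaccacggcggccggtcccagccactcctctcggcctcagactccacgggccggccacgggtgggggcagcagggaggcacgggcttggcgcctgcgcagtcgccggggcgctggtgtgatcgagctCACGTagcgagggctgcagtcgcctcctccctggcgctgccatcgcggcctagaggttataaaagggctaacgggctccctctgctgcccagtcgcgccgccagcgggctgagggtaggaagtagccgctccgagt
BNIP3: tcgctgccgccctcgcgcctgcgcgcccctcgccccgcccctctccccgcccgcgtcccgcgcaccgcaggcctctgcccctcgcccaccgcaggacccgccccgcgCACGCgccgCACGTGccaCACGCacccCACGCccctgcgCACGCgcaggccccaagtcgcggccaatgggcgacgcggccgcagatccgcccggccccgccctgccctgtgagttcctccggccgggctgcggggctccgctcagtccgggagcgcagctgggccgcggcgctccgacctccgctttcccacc
ADM: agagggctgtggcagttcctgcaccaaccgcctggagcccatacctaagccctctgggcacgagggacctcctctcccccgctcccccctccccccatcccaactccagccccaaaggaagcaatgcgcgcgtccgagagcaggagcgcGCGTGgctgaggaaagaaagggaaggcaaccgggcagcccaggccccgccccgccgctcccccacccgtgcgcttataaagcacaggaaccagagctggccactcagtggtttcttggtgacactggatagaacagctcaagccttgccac
PFKP: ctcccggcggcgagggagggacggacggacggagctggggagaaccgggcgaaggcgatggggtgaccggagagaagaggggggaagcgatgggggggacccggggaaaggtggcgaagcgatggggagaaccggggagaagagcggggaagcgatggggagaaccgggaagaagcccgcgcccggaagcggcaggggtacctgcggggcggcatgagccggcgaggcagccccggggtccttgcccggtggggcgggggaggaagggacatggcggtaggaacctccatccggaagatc
PDK1: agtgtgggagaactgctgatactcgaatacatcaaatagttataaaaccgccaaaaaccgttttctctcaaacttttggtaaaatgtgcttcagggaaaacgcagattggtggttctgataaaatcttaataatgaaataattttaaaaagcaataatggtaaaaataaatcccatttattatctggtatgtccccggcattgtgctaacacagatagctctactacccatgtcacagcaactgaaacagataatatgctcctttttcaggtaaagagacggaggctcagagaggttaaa
PGAM1: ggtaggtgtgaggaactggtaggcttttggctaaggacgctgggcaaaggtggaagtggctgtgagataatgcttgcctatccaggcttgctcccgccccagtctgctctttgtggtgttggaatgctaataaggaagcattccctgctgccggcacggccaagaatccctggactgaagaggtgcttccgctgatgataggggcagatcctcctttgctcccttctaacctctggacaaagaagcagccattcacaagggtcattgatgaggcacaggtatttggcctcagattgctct
The P4HA1 window held 1 ACGTG and the ADM window 1 GCGTG. The BNIP3 window held 2 ACGTG, which are the strands of 1 CACGTG, and 4 GCGTG within a short stretch. The windows of PFKP, PDK1 and PGAM1 held neither core, which says only that these letters are not in this window, since 1 start per gene was searched. The windows of ADM, PFKP and PGAM1 lie wholly downstream of the gene starts in GENCODE 29. Those starts are chr11:10304680, chr10:3066333 and chr10:97426160, and the sequence around them was not searched. A promoter was matched for 38 of the 42 genes, and BNIP3L, VEGFA, SLC2A3 and NDRG1 had none. Of these 38, 29 (76.3%) held ACGTG or GCGTG, against 48.4% of 35116 promoters of the same length. ACGTG was present in 18 (47.4% against 21.4% of all), GCGTG in 20 (52.6% against 36.5%) and CACGTG, which contains ACGTG, in 6 (15.8% against 7.26%).

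Values below are CPM, counts divided by library size and scaled by trimmed mean of M-values within each cell line, log2 fold changes are given ± standard error, and a gene passed the test at a Benjamini-Hochberg adjusted p under 0.05 in edgeR's quasi-likelihood test over all genes. Of the 42 genes, 38 passed the filter on low counts in Huh6, 39 in HepG2 and 39 in the macrophages. ALDOA, ALDOC and EGLN1 passed it in none, with highest group means of 0.0986, 0 and 0.0881 CPM, and CA9 did not pass it in Huh6. ALDOA is among the most abundant messengers of most cells, and its row summed to 4 counts over all tumour libraries while an annotated gene that overlaps it on the same strand, AC093512.2, summed to 324. HIF1A, a messenger that most cell lines hold in quantity, reached at most 3.79 CPM in any group. Its row summed to 289 counts in the tumour libraries and the overlapping AL137129.1 to 28, so the HIF1A values below cannot be read as the level of the gene. The hepatic markers, 16 genes such as albumin and alpha-fetoprotein, summed to between 35936 and 39529 CPM in vehicle HepG2 and between 13694 and 13833 in vehicle Huh6. Of 14 macrophage markers, 12 were above 1 CPM in macrophages alone, where they summed to between 6297 and 6553 CPM and where CD68 and CYBB were listed at 0. The same markers summed to between 1150 and 1302 CPM in vehicle HepG2, with 3 above 1 CPM. In vehicle Huh6 they summed to between 38.1 and 41.5 CPM, with 5 above 1 CPM. The list as a whole is therefore not absent from HepG2.

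The vehicle libraries of HepG2 and Huh6 differed in the balance between members of the same transporter and enzyme families. Against a background of 83% of 14469 genes that differed between the lines, 37 of 38 tested members did, 25 higher and 12 lower in HepG2, and AK4 did not pass. The lines were also seeded at different densities, so line and density cannot be told apart. Per kilobase of exon, the glucose transporter SLC2A1 (GLUT1) stood at 275 ± 5.54 CPM (SD, n = 3) in HepG2 and 34.8 ± 1.25 in Huh6. SLC2A3 (GLUT3), a transporter of higher affinity best known from neurons, stood at 80.6 ± 0.515 per kilobase in HepG2 and 1226 ± 20.1 in Huh6. The order of the transporters was therefore opposite in the lines. Hexokinases trap glucose in the cell: HK2, the inducible muscle form, stood at 63.1 ± 2.60 per kilobase in HepG2 against 0.332 ± 0.0258 for HK1, the form of most other tissues. In Huh6, HK2 at 5.68 ± 0.200 and HK1 at 3.82 ± 0.190 per kilobase were closer to each other. For phosphofructokinase, which commits sugar to glycolysis, the liver form PFKL exceeded the platelet form PFKP in HepG2 (37.8 ± 0.409 against 4.09 ± 0.0503 per kilobase) and less so in Huh6 (25.8 ± 0.352 against 14.4 ± 0.206). For enolase, ENO1 stood far above the neuronal form ENO2 in both, at 538 ± 8.26 against 22.1 ± 1.27 per kilobase in HepG2 and 304 ± 9.09 against 52.4 ± 1.73 in Huh6.

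**Figure D1:**
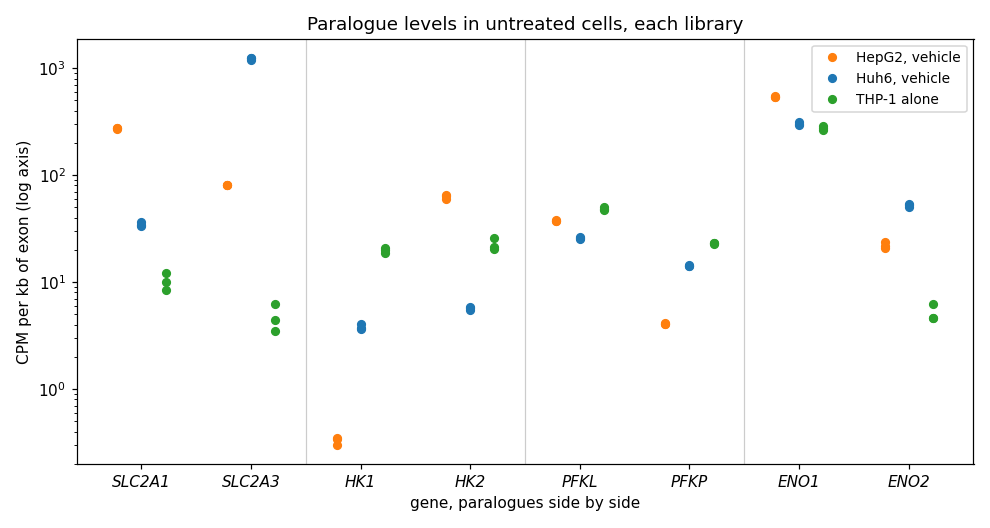
CPM per kilobase of exon (log axis) of 4 pairs of paralogues in vehicle HepG2 (orange), vehicle Huh6 (blue) and THP-1 macrophages alone (green), with a point for each of the 3 libraries. SLC2A1 and SLC2A3 change order between HepG2 and Huh6, and HK1 in HepG2 lies lowest, near 0.332.

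As log2 differences, the largest excess in HepG2 was in PLOD2, a collagen lysyl hydroxylase (5.23 ± 0.14), SLC16A3, the lactate exporter MCT4 (4.63 ± 0.04), EGLN3 (4.43 ± 0.30) and HK2 (3.43 ± 0.04). CA9, a cell-surface carbonic anhydrase often used as a hypoxia marker, was read at 5.25, 5.13 and 4.66 CPM in the HepG2 libraries and at 0, 0.306 and 0.101 in Huh6, all under the level of the filter (0.508 CPM), so it entered the comparison through HepG2 and its call is no support. SLC16A3 was read at 489.7, 482 and 511 CPM in HepG2 and at 20.6, 18.5 and 19.2 in Huh6. The groups did not overlap for either gene. EGLN3 was read in the vehicle Huh6 libraries at 0.0136, 0.0902 and 0.0274 CPM per kilobase of exon. Most of these libraries were under the level of the filter, so EGLN3 too entered through HepG2 and its call is no support. LDHA (1.36 ± 0.03), GPI (1.46 ± 0.04) and PDK1 (0.99 ± 0.06) were also higher in HepG2. The later steps of glycolysis divided, with PKM (1.11 ± 0.03), ENO1 (0.79 ± 0.03) and PGK1 (0.66 ± 0.03) higher in HepG2 and GAPDH (−0.35 ± 0.03), PGAM1 (−0.15 ± 0.04) and ENO2 (−1.28 ± 0.04) lower. Higher in Huh6 were SLC2A3 (−3.97 ± 0.03), HK1 (−3.56 ± 0.12), CA12 (−2.23 ± 0.31), PFKFB3 (−2.07 ± 0.05), PFKP (−1.85 ± 0.05) and TPI1 (−0.49 ± 0.03).

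Under the inhibitors the 42 genes did not move as a block. PKF118-310 at 0.2 µM in HepG2 lowered 21 and raised 12 of 39 tested members, where 67.7% of all genes passed the test (34.3% higher, 33.4% lower), and the members' median log2 change was −0.32 against 0.01 over all genes. iMDK in HepG2 lowered 20 and raised 10 at 5 µM (background 47.3%) and lowered 18 and raised 12 at 10 µM (background 54.6%), with medians of −0.17 and −0.07. In Huh6, PKF118-310 at 0.2 µM lowered 7 of 38 and raised 0 (background 2.24%, 1.04% higher and 1.2% lower), where DESeq2 raised 1 and lowered 8 and an unadjusted p under 0.05 was reached by 1 higher and 15 lower. At 0.3 µM, 12 members were higher and 11 lower (background 28.5%). Scaling by library size alone turned that to 11 higher and 16 lower (1804 higher and 2563 lower over all genes). At 0.4 µM, 20 were higher and 11 lower (background 56.8%), with a median of 0.19 against −0.01, and against 0.3 µM 24 were higher and 4 lower (background 40.8%). iMDK in Huh6 raised 10 and lowered 17 at 5 µM (background 35.6%) and raised 13 and lowered 14 at 10 µM (background 52.1%), and 16 were higher and 3 lower at 10 than at 5 µM (background 24.9%). In HepG2, 7 were higher and 3 lower at 10 than at 5 µM of iMDK (background 13.4%, 6.5% higher and 6.94% lower). Over the 8 comparisons with vehicle, which share 1 vehicle group in each line, 9 members were called only in the higher direction, 14 only in the lower, 15 in both, and 4 never, of which 3 were the untested genes and the other was ANKRD37. Hepatic markers were lower than with vehicle in groups where the members' counts divided in different ways. Their summed CPM was 8042 to 8956 in HepG2 with PKF118-310 at 0.2 µM and 25502 to 25970 with iMDK at 10 µM. In Huh6 it was 8384 to 9422 with PKF118-310 at 0.4 µM and 9500 to 9792 with iMDK at 10 µM. What part loss of the hepatic programme has in the members' changes was not tested, and in bulk RNA fewer cells of a kind and less RNA per cell cannot be told apart. Midkine itself (MDK) was lower in all 8 comparisons, with log2 changes of −0.20 to −0.43. AXIN2, a standard beta-catenin/TCF target, was higher with PKF118-310 in HepG2 (0.35) and in Huh6 at 0.4 µM (0.11) and lower with iMDK at 10 µM in both lines (−0.40 in HepG2, −0.21 in Huh6).

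**Figure D2:**
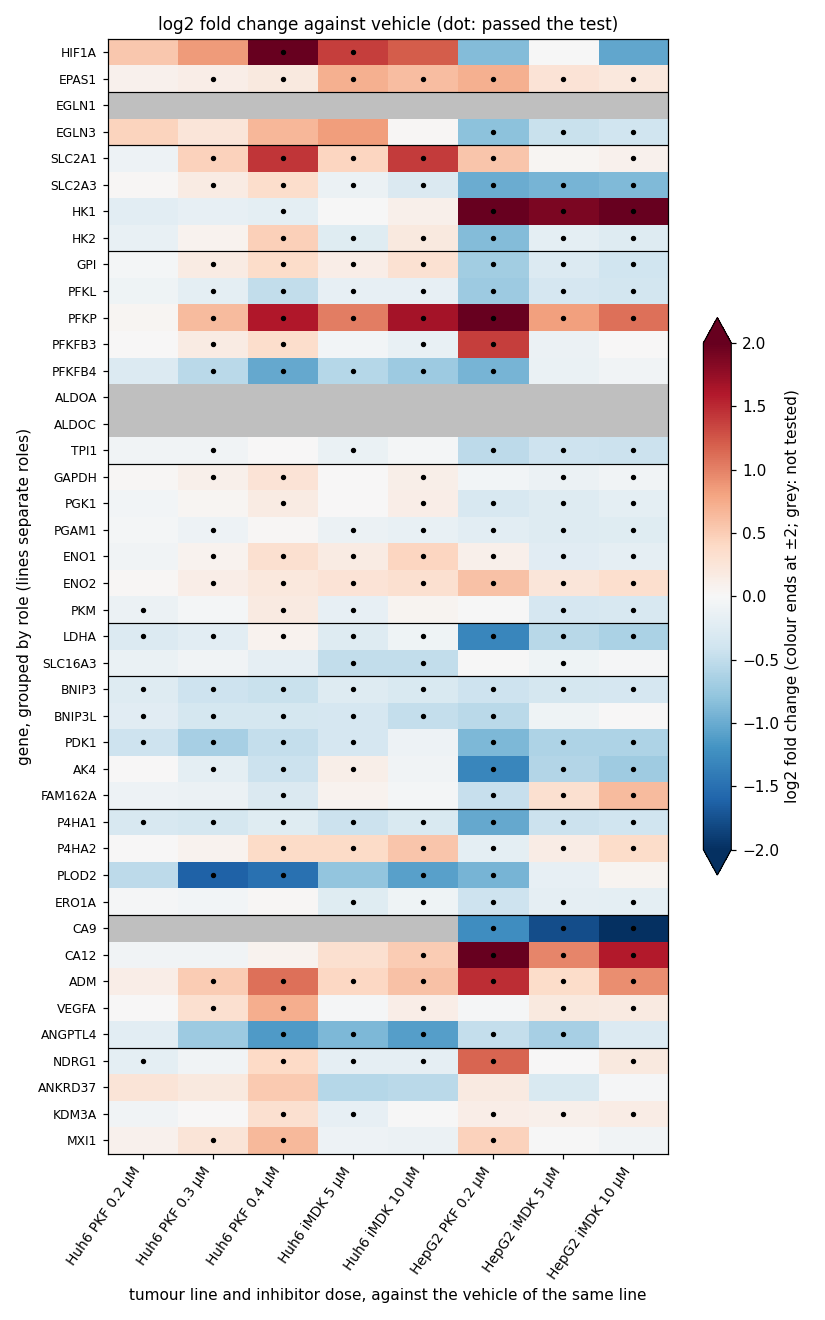
Log2 fold change against the vehicle of the same line for the 42 genes (rows, grouped by role) in 8 comparisons (columns). Red is higher and blue lower, colours end at 2 in either direction, grey was not tested, and a dot marks a gene that passed the test. BNIP3 and P4HA1 are blue in all 8 columns, and PFKP is red in 7 of them.

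Of the HIF subunits, EPAS1 (HIF-2 alpha) rose in 7 of the 8 comparisons. In Huh6 it stood at 268, 270.1 and 271 CPM with vehicle, at 437, 448 and 434 with iMDK at 5 µM and at 303, 310.1 and 317 with PKF118-310 at 0.4 µM. In HepG2 it stood at 345, 325 and 344 CPM with vehicle and at 558, 551 and 552 with PKF118-310 at 0.2 µM. The treated groups did not overlap vehicle, with log2 changes of 0.70 ± 0.03, 0.20 ± 0.03 and 0.71 ± 0.03. HIF1A was called higher in Huh6 with PKF118-310 at 0.4 µM and iMDK at 5 µM from values of at most 1.32 CPM. Every vehicle library of Huh6 was under the level of the low-count filter for HIF1A. It entered these tests through other groups, so its calls are no support, although the counts of higher members above include it. The sensor EGLN3, itself a HIF target, was at most 0.789 CPM in any Huh6 library and passed no test there. In HepG2 it was read at 7.10, 8.22 and 6.26 CPM with vehicle and at 4.02, 3.42 and 4.73 with PKF118-310 at 0.2 µM, a change of −0.83 ± 0.15 (adjusted p = 4.5e-06).

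The transporters and hexokinases that bring in and trap glucose moved in different directions. SLC2A1 was read in Huh6 at 171, 159 and 163 CPM with vehicle, at 220.4, 221 and 236 with PKF118-310 at 0.3 µM and at 428, 449 and 450.1 at 0.4 µM. With iMDK it was read at 222, 223 and 216 CPM at 5 µM and at 444, 423 and 435 at 10 µM. Every one of these treated libraries was above vehicle, with changes of 1.43 ± 0.03 at 0.4 µM of PKF118-310 (adjusted p = 1.2e-34) and 1.40 ± 0.03 at 10 µM of iMDK (adjusted p = 3.4e-34). In HepG2, which starts higher, SLC2A1 went from 1311, 1267 and 1315 CPM to 1985, 1847 and 1866 with PKF118-310 at 0.2 µM (0.55 ± 0.03), and iMDK at 10 µM moved it by 0.08 ± 0.03. The change with iMDK at 10 µM was smaller in HepG2 than in Huh6 by 1.27 ± 0.04 (adjusted p = 4.0e-30 for the interaction). SLC2A3 fell in HepG2 from 497, 493 and 499 CPM to 257, 247 and 245 with PKF118-310 at 0.2 µM, to 273, 248 and 259 with iMDK at 5 µM and to 256, 270.1 and 277 at 10 µM. The treated libraries were all well below vehicle, with changes between −0.89 and −0.99. In Huh6 it rose with PKF118-310 at 0.4 µM (0.36 ± 0.02, from 7632, 7617 and 7410 CPM to 9533, 9669.7 and 9799.9) and fell with iMDK at 10 µM (−0.29 ± 0.02).

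HK1 gave the largest rise among the members in HepG2. It was read at 1.91, 2.15 and 2.22 CPM with vehicle, at 25.96, 23.3 and 27.6 with PKF118-310 at 0.2 µM, at 8.01, 7.20 and 7.89 with iMDK at 5 µM and at 10.98, 9.49 and 10.2 at 10 µM. No treated library overlapped vehicle, and HK1 was 12.2-fold higher with PKF118-310 (log2 3.61 ± 0.12, adjusted p = 1.1e-26), 3.68-fold higher with iMDK at 5 µM and 4.88-fold higher at 10 µM. The values with PKF118-310 lay close to those of vehicle Huh6 (23.2, 23.5 and 25.4 CPM). In Huh6 the change of HK1 with PKF118-310 at 0.2 µM did not pass the test (−0.22 ± 0.08, adjusted p = 0.14), and the difference of the 2 lines' changes was 3.83 ± 0.15 (adjusted p = 4.4e-26). HK2 went the other way in HepG2, from 395, 365 and 389 CPM with vehicle to 211, 205 and 212 with PKF118-310 (−0.87 ± 0.03). In Huh6 HK2 rose at 0.4 µM of PKF118-310, from 34.7, 33.1 and 35.5 to 44.9, 48.5 and 49.9 CPM (0.47 ± 0.06).

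In the earlier steps of glycolysis, PFKP and the regulator PFKFB3 rose in HepG2 with PKF118-310 and the other 4 of 6 tested members fell. The background there was 34.3% of all genes higher and 33.4% lower. PFKP was read in HepG2 at 19.6, 19.7 and 20.1 CPM with vehicle, at 195, 202 and 186 with PKF118-310 at 0.2 µM and at 42.6, 42.0 and 42.9 with iMDK at 10 µM. In Huh6 it was read at 68.7, 70.6 and 69.1 CPM with vehicle, at 106, 104 and 111 with PKF118-310 at 0.3 µM, at 200.5, 214 and 215 at 0.4 µM and at 213, 222 and 224 with iMDK at 10 µM. The changes were 3.29 ± 0.05 (adjusted p = 2.3e-38) and 1.10 ± 0.06 in HepG2 and 1.59 ± 0.04 and 1.66 ± 0.04 in Huh6, and at 0.2 µM of PKF118-310 Huh6 changed by 0.04 ± 0.04. PFKL, the liver form, fell in 7 of the 8 comparisons, from 336, 335 and 342 CPM to 209, 202 and 204 in HepG2 with PKF118-310 (−0.72 ± 0.03) and from 227, 229.5 and 234 to 159, 160.4 and 171 in Huh6 at 0.4 µM (−0.49 ± 0.03). PFKFB3 and PFKFB4 make and remove the small activator of phosphofructokinase, fructose 2,6-bisphosphate. PFKFB3 rose with PKF118-310 in HepG2 from 19.9, 19.8 and 20.8 to 51.8, 53.6 and 52.0 CPM (1.38 ± 0.06), and PFKFB4 fell from 29.7, 31.7 and 31.2 to 16.4, 14.7 and 17.7 CPM (−0.92 ± 0.07). In Huh6 at 0.4 µM the same pair changed by 0.35 ± 0.04 and −1.02 ± 0.10, and with iMDK at 10 µM PFKFB4 changed by −0.72 ± 0.09. GPI, which turns glucose 6-phosphate into fructose 6-phosphate, fell in HepG2 in all 3 comparisons (−0.69 ± 0.03 with PKF118-310, −0.39 ± 0.03 with iMDK at 10 µM) and rose in Huh6 with PKF118-310 at 0.4 µM (0.37 ± 0.04) and iMDK at 10 µM (0.30 ± 0.04). TPI1, which interconverts the triose phosphates, fell in HepG2 (−0.52 ± 0.03 with PKF118-310, −0.42 ± 0.03 with iMDK at 10 µM).

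**Figure D3:**
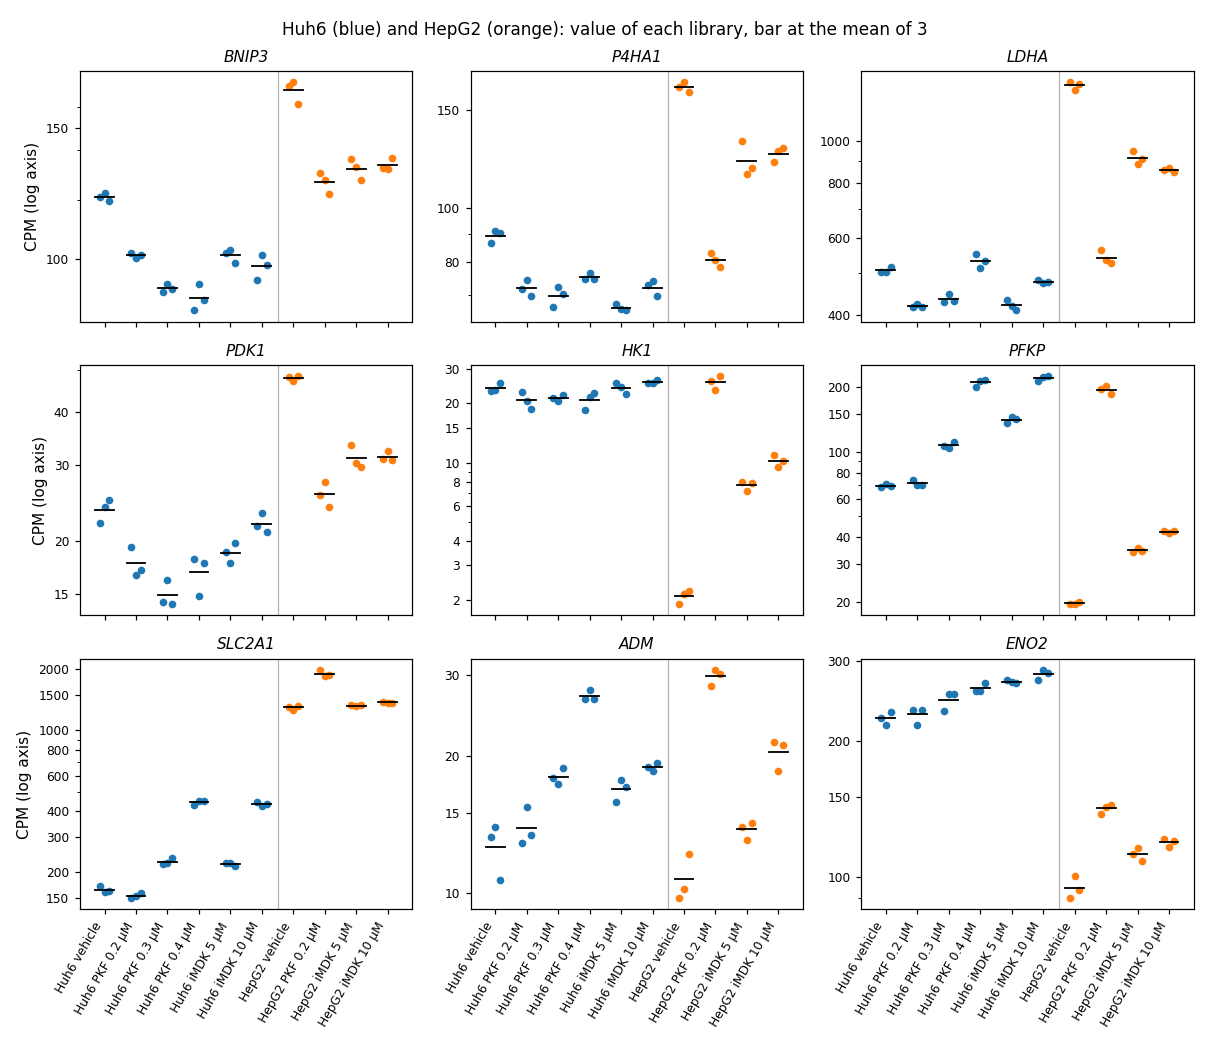
CPM (log axis) of 9 members in each library of Huh6 (blue) and HepG2 (orange) by treatment, with a bar at the mean of 3. BNIP3, P4HA1 and PDK1 lie below vehicle in the treated groups, and HK1 rises in HepG2 from about 2.15 with vehicle to 23.3 or more with PKF118-310 at 0.2 µM.

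The later steps of the pathway, 6 genes, differed between the lines in 1 direction with iMDK and in both with PKF118-310. The change was more positive in HepG2 for 0 and more negative for 4 at either dose of iMDK, and for 3 and 3 with PKF118-310 at 0.2 µM. Over all genes the shares were 15.6% and 17% at 5 µM of iMDK, 21% and 20.7% at 10 µM, and 28.3% and 28.1% with PKF118-310. In Huh6 at 0.4 µM of PKF118-310, 5 of 6 rose and 0 fell (background 28.9% higher and 27.9% lower). Those that rose included GAPDH (0.27 ± 0.02), ENO1 (0.32 ± 0.02), PGK1 (0.17 ± 0.03) and the final enzyme PKM (0.18 ± 0.02). In HepG2 with iMDK at 10 µM, 1 of 6 rose and 5 fell (background 27.3% higher and 27.2% lower). Those that fell included PKM (−0.33 ± 0.03), PGK1 (−0.19 ± 0.03) and the mutase PGAM1 (−0.24 ± 0.04). Huh6 with iMDK had 2 of 6 higher and 2 lower at 5 µM (background 17.3% and 18.3%) and 4 higher and 1 lower at 10 µM (26% and 26.1%). HepG2 with PKF118-310 had 2 higher and 2 lower (34.3% and 33.4%). ENO1 shows the difference under iMDK: at 10 µM it went from 1655, 1592 and 1560.3 to 2202, 2127 and 2119 CPM in Huh6 and from 2819.8, 2806 and 2888 to 2553, 2494 and 2445 in HepG2. The groups did not overlap in either line, and the difference of the changes was −0.56 ± 0.04 (adjusted p = 2.5e-17). ENO2, the neuronal enolase, was the exception within its step and rose in 7 of 8 comparisons, by 0.58 ± 0.04 in HepG2 with PKF118-310 and by 0.32 ± 0.03 in Huh6 with iMDK at 10 µM. The ENO2 row overlaps LRRC23 in the genome.

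Lactate dehydrogenase A, which turns pyruvate into lactate, fell in 7 of 8 comparisons. LDHA was read in HepG2 at 1359, 1303 and 1344 CPM with vehicle, at 562, 533 and 527 with PKF118-310 at 0.2 µM, and at 855, 867 and 849.5 with iMDK at 10 µM. In Huh6 it was read at 501, 501 and 516 CPM with vehicle and at 416, 424 and 417 with PKF118-310 at 0.2 µM. No treated library reached vehicle, with changes of −1.30 ± 0.03 (adjusted p = 2.2e-31), −0.64 ± 0.03 and −0.27 ± 0.03. PKF118-310 at 0.2 µM thus moved LDHA more in HepG2 than in Huh6, with a difference of −1.03 ± 0.04 (adjusted p = 4.7e-27). At 0.4 µM in Huh6 the libraries overlapped vehicle (550.01, 514 and 532 CPM), and the small call of 0.07 ± 0.03 changed sign to −0.01 when scaled by library size alone. The exporter SLC16A3 fell in Huh6 with iMDK at 10 µM (−0.50 ± 0.08) and did not pass the test in HepG2 with PKF118-310 (−0.01 ± 0.03). PDK1, the kinase that shuts pyruvate out of mitochondria, fell in HepG2 from 48.2, 47.3 and 48.5 CPM to 25.6, 27.5 and 23.9 with PKF118-310 (−0.90 ± 0.06) and to 31.1, 32.3 and 30.9 with iMDK at 10 µM (−0.61 ± 0.06). In Huh6 PDK1 fell at every dose of PKF118-310, with changes of −0.41 ± 0.08, −0.66 ± 0.08 and −0.48 ± 0.08.

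The mitochondrial members, 5 genes including the mitophagy receptors BNIP3 and BNIP3L, included none that rose with PKF118-310. In HepG2 5 of 5 fell at 0.2 µM (background 33.4% lower), and in Huh6 3 fell at 0.2 µM (background 1.2% lower), 4 at 0.3 µM (13.5%) and 5 at 0.4 µM (27.9%). BNIP3 was read in Huh6 at 121, 123 and 119.6 CPM with vehicle, at 102, 100.3 and 101 with PKF118-310 at 0.2 µM and at 85.2, 92.5 and 88.1 at 0.4 µM. In HepG2 it was read at 171, 173 and 162 CPM with vehicle and at 130.5, 127 and 122 with PKF118-310 at 0.2 µM. Every treated library was below every vehicle library of its line. BNIP3 was called lower in all 8 comparisons, with changes of −0.26 ± 0.03 to −0.45 ± 0.04, and it carries the CACGTG and the 4 GCGTG cores shown above. BNIP3 has 39 named pseudogenes, and reads that map to several places may be counted differently among them. BNIP3L fell in 6 comparisons, all 5 in Huh6 and PKF118-310 in HepG2 (−0.54 ± 0.06). AK4, a mitochondrial adenylate kinase, fell in HepG2 from 175, 168 and 168 to 72.8, 65.4 and 70.0 CPM with PKF118-310 (−1.30 ± 0.04), and in Huh6 it fell at 0.4 µM (−0.43 ± 0.03) and rose with iMDK at 5 µM (0.11 ± 0.03). FAM162A, a mitochondrial protein tied to hypoxic cell death, fell with PKF118-310 in HepG2 (−0.46 ± 0.06) and rose with iMDK at 10 µM there (0.63 ± 0.05).

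Of the collagen and folding enzymes, 4 of 4 fell in HepG2 with PKF118-310 (background 33.4% lower), and P4HA2 rose in other groups. P4HA1, a catalytic subunit of the prolyl hydroxylase that stabilises collagen, was read in Huh6 at 86.7, 91.0 and 90.2 CPM with vehicle and at 67.3, 66.0 and 65.7 with iMDK at 5 µM. In HepG2 it was read at 165, 168 and 161 CPM with vehicle and at 83.3, 80.8 and 78.6 with PKF118-310 at 0.2 µM. The groups did not overlap, and P4HA1 was called lower in all 8 comparisons, from −0.25 ± 0.04 in Huh6 at 0.4 µM of PKF118-310 to −1.02 ± 0.04 in HepG2. P4HA2, the other catalytic subunit, rose in Huh6 with iMDK at 10 µM (0.56 ± 0.03) and in HepG2 with iMDK at 10 µM (0.36 ± 0.05) and fell in HepG2 with PKF118-310 (−0.19 ± 0.05). PLOD2 fell in HepG2 with PKF118-310 (−0.94 ± 0.08) and was under 1 CPM in every Huh6 library. ERO1A, which oxidises the thiols of folding proteins, fell in HepG2 in all 3 comparisons (−0.42 ± 0.04 with PKF118-310).

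The secreted peptide ADM, a vasodilator, rose in 7 of 8 comparisons. It was read in HepG2 at 9.75, 10.2 and 12.2 CPM with vehicle, at 28.5, 30.8 and 30.2 with PKF118-310 at 0.2 µM and at 21.5, 18.5 and 21.1 with iMDK at 10 µM. In Huh6 it was read at 13.3, 13.9 and 10.7 CPM with vehicle and at 26.6, 27.9 and 26.7 with PKF118-310 at 0.4 µM. The treated groups lay above vehicle, with changes of 1.48 ± 0.08, 0.93 ± 0.09 and 1.10 ± 0.08. VEGFA, the main angiogenic ligand, rose in Huh6 with PKF118-310 at 0.4 µM (0.72 ± 0.03) and stood at −0.02 ± 0.05 in HepG2 at 0.2 µM (adjusted p = 0.80). The carbonic anhydrases, which help set pH outside the cell, moved apart in HepG2. CA9 was read there at 1.61, 1.76 and 2.97 CPM with PKF118-310 at 0.2 µM, at 1.99, 1.00 and 1.42 with iMDK at 5 µM and at 0.944, 0.894 and 0.848 at 10 µM, all below the 3 vehicle libraries (−1.24 ± 0.22, −1.77 ± 0.23 and −2.48 ± 0.25). CA12 rose from 1.22, 1.10 and 0.171 to 3.77, 4.02 and 3.56 CPM with PKF118-310 (2.16 ± 0.28, adjusted p = 6.8e-09), although all of these are low values. ANGPTL4, a secreted inhibitor of lipoprotein lipase, fell in Huh6 with PKF118-310 at 0.4 µM (−1.14 ± 0.37) and iMDK at 10 µM (−1.09 ± 0.36) from levels near 1 CPM.

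NDRG1, a stress-responsive HIF target, rose with PKF118-310 in HepG2, from 97.4, 84.4 and 84.5 to 197, 204 and 196 CPM (1.165 ± 0.05). In Huh6 NDRG1 fell at 0.2 µM (−0.20 ± 0.04) and rose at 0.4 µM (0.40 ± 0.04). The difference between the lines at the shared dose of 0.2 µM was 1.36 ± 0.06 (adjusted p = 4.3e-25). MXI1, an antagonist of MYC, rose with PKF118-310 in HepG2 (0.45 ± 0.06) and in Huh6 at 0.4 µM (0.64 ± 0.06), and the histone demethylase KDM3A rose in the same groups (0.13 ± 0.04 and 0.32 ± 0.04). ANKRD37, at 1.38 CPM or less in vehicle Huh6 and 2.23 or less in vehicle HepG2, passed the test in none of the 8 comparisons.

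The lines' responses differed for most members. The change at the same dose was more positive in HepG2 for 13 members and more negative for 19 with PKF118-310 at 0.2 µM (background 56.3% of all genes), for 8 and 15 with iMDK at 5 µM (background 32.6%) and for 11 and 17 with iMDK at 10 µM (background 41.7%). Among members called in both lines, 5 of 6 had the same direction with PKF118-310 at 0.2 µM, 18 of 22 with iMDK at 5 µM and 15 of 21 with iMDK at 10 µM. The same share over all genes called in both lines was not computed, so these counts cannot be read as particular to the members. The single HepG2 library with PKF118-310 at 0.3 µM had no replicate and was not tested. There, 4 of 39 members were at least 2-fold higher and 8 at least 2-fold lower than vehicle, against 11.7% and 12.4% of all genes. CA12 (3.57), PFKP (2.95), HK1 (2.57) and ADM (1.71) had the highest log2 differences in it, and CA9 (−2.30) and SLC2A3 (−1.72) the lowest.

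Genes of the same pathways outside the 42 were described from lists that were likewise chosen with results of these data known. Of 20 further HIF targets, 11 of 19 tested rose and 6 fell in HepG2 with PKF118-310 at 0.2 µM (background 67.7% of all genes called, 34.3% higher and 33.4% lower), with a median log2 change of 0.37 against 0.01 over all genes. In Huh6 at 0.4 µM 11 of 18 rose and 5 fell (background 56.8%, 28.9% higher and 27.9% lower), with a median of 0.15 against −0.01. BHLHE40, a transcriptional repressor of the circadian clock, rose by 1.31 in HepG2 and 2.07 in Huh6 in these comparisons. EPO, the erythropoietin gene, fell by 2.98 and 2.13, and LOX, a collagen cross-linking enzyme, fell by 3.10 and 0.89. Of 24 further glycolytic genes, 1 of 17 tested rose and 13 fell in HepG2 with PKF118-310 (median −0.68), and 6 rose and 4 fell in Huh6 at 0.4 µM (median 0.06), with the same backgrounds. PKLR, the liver form of pyruvate kinase, fell by 1.999 in HepG2 and 2.45 in Huh6, and MPC1, a subunit of the mitochondrial pyruvate carrier, fell by 2.06 in HepG2. Of 14 further regulators of HIF, 4 of 11 tested rose and 1 fell in HepG2 with PKF118-310 (median 0.08), and 6 rose and 4 fell in Huh6 at 0.4 µM (median 0.16), with the same backgrounds.

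In macrophages cultured with HepG2, 21 of 39 tested members were higher than in macrophages alone and 1 was lower (background 21.6% of 15500 genes, 12% higher and 9.68% lower), 13 of the 21 by at least 2-fold, and the median change was 0.53 against −0.01 over all genes. For 4 of the 21, CA9, EGLN3, PLOD2 and AK4, no library of macrophages alone reached the level of the low-count filter (0.636 CPM). They entered the test through the co-cultures, so their calls are no support, which leaves 17. EGLN3 lay closest to that level, at up to 0.562 CPM alone. All 4 are also among the 13. VEGFA, HK2, SLC2A3, FAM162A, ANGPTL4 and CA12 were among the targets that did not pass. Sorted macrophages still carried tumour RNA: the 16 hepatic markers summed to between 56.2 and 71.0 CPM alone, with 7 at 0, and to between 2756 and 3334 CPM after culture with HepG2. From 15 of these markers, the median share of HepG2 reads was 7.25%, 9.72% and 8.55% in the 3 libraries, while single markers gave 0.857% to 18.3%. Changes of the 21 against macrophages alone are therefore given beside the CPM of the gene in vehicle HepG2, and the excess over macrophages alone is given as a percentage of that partner level. Vehicle HepG2 was grown without macrophages for 48 h, and the level in the co-cultured tumour cells was not analysed here. Of the 21, 15 had an excess above 18.3% of the partner level, 3 lay between 9.72% and 18.3%, and 3 were at or below 9.72%. The 15 include CA9 and EGLN3, which entered the test through the co-cultures.

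NDRG1 had the largest excess for its partner level. It was read at 169, 140.4 and 144 CPM alone and at 276, 252 and 362 with HepG2 (0.97 ± 0.18, adjusted p = 0.00039), beside 88.7 CPM in the partner line, an excess of 164%. The groups did not overlap. Macrophages alone were already above the level of the partner line, so co-cultured libraries above that level say nothing about tumour reads. MXI1 was read at 32.4, 36.3 and 34.1 CPM alone and at 70.9, 67.5 and 68.9 with HepG2 (1.01 ± 0.11, adjusted p = 8.3e-07), beside 33.9 in the partner, an excess of 103%. ADM was read at 2.18, 2.69 and 2.19 CPM alone and at 16.7, 11.3 and 9.91 with HepG2 (2.42 ± 0.44, adjusted p = 0.00032), beside 10.7 in the partner, an excess of 96.0%. For MXI1, macrophages alone already lay near the level of the partner line, and for ADM the co-cultured libraries lay near or above it. The mitophagy receptors rose too: BNIP3 was read at 12.7, 13.9 and 13.5 CPM alone and at 52.6, 52.2 and 51.8 with HepG2 (1.97 ± 0.25, adjusted p = 4.8e-06), beside 169 in the partner (excess 23.1%). BNIP3L went from 85.2, 84.3 and 88.8 to 131, 130.1 and 142 CPM (0.64 ± 0.09), beside 70.2 in the partner (excess 68.7%).

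**Figure D4:**
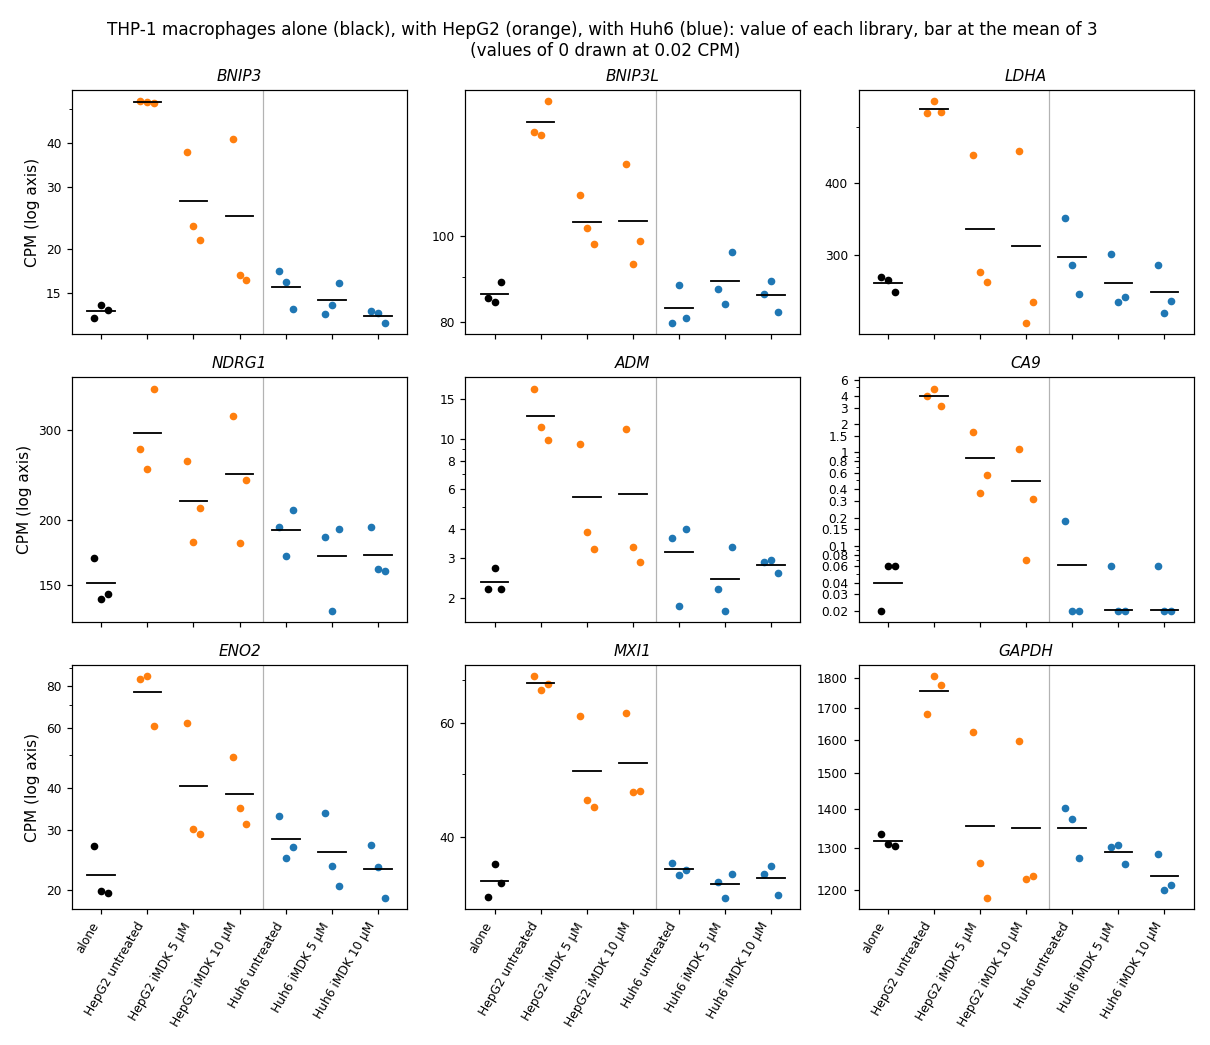
CPM (log axis, values of 0 drawn at 0.02) of 9 members in each macrophage library, alone (black), with HepG2 (orange) and with Huh6 (blue), with a bar at the mean of 3. With untreated HepG2 all 9 genes lie above macrophages alone, with untreated Huh6 they lie near them, and in the groups with iMDK-treated HepG2 the first library usually lies nearest to untreated HepG2.

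Among the enzymes, LDHA was read at 275, 271 and 259 CPM alone and at 528, 555 and 531 with HepG2 (1.01 ± 0.20, adjusted p = 0.00076), beside 1335 in the partner (excess 20.2%). ENO2 was read at 26.95, 19.9 and 19.6 CPM alone and at 83.9, 85.3 and 61.0 with HepG2 (1.79 ± 0.25), beside 94.7 in the partner (excess 57.6%). The groups did not overlap for either enzyme. GAPDH changed by 0.41 ± 0.10 beside a partner level of 1455 CPM (excess 30.1%) and PGK1 by 0.38 ± 0.08 beside 529.9 CPM (excess 18.7%), while ENO1, PKM, TPI1, PGAM1, GPI and PFKL did not pass the test. P4HA1 was read at 34.9, 39.8 and 40.6 CPM alone and at 97.2, 93.4 and 95.9 with HepG2 (1.31 ± 0.18), beside 164 in the partner (excess 34.7%). ERO1A changed by 1.13 ± 0.15 beside 204 CPM (excess 21.2%), KDM3A by 0.56 ± 0.10 beside 97.1 CPM (excess 28.1%), EGLN3 by 2.19 ± 0.50 beside 7.19 CPM (excess 26.4%) and ANKRD37 by 1.37 ± 0.41 beside 2.18 CPM (excess 72.9%). CA9 was read at 0, 0.0598 and 0.0607 CPM alone and at 4.02, 4.83 and 3.12 with HepG2, beside 5.01 in the partner (excess 78.8%). These are 190 counts against 2, a ratio of 98.9 with a 95% counting interval of 26.99 to 822, given as a description. The part of tumour RNA in the CA9 level was not tested.

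For the other 6 the excess was within the range of the hepatic markers. SLC2A1 was read at 57.8, 39.5 and 47.5 CPM alone and at 123, 117 and 131 with HepG2 (1.36 ± 0.26), beside 1298 in the partner (excess 5.80%), and its direction turned to −1.23 after subtraction of the estimated tumour reads. AK4 went from 0.187, 0.419 and 0.0607 to 14.3, 18.4 and 19.2 CPM, beside 170.5 in the partner (excess 10.0%). PDK1 changed by 0.84 ± 0.22 beside 47.99 CPM (excess 10.7%), SLC16A3 by 0.46 ± 0.09 beside 494 CPM (excess 10.5%) and P4HA2 by 0.53 ± 0.17 beside 80.3 CPM (excess 8.84%). PLOD2 had 49 counts against 3, whose ratio has a 95% counting interval of 5.48 to 85.3, beside 31.4 CPM in the partner (excess 3.14%). HK1 was the member called lower, from 117, 125 and 132 to 105, 90.8 and 100.1 CPM (−0.34 ± 0.08, adjusted p = 0.0056), beside about 2.15 in the partner. After subtraction 21 members were higher and 0 lower (over all genes, 1502 higher and 1788 lower). Of those 21, 17 were shared with the first count: P4HA2, PDK1, PLOD2 and SLC2A1 were lost and PFKFB3, PFKL, PFKP and TPI1 were gained. The shared 17 still include CA9, EGLN3 and AK4, which entered the test through the co-cultures, so they are a different set from the 17 left above. BNIP3 then stood at 1.70, LDHA at 0.86, ADM at 2.49, ENO2 at 1.82, NDRG1 at 1.12, MXI1 at 1.13 and P4HA1 at 1.27 on the log2 scale.

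**Figure D5:**
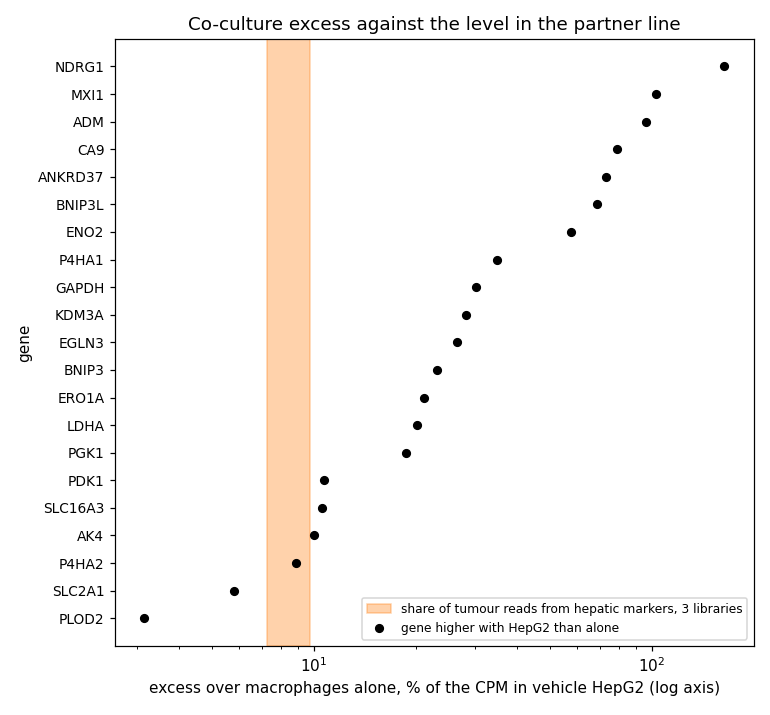
Excess of each of the 21 called members in macrophages with HepG2 over macrophages alone, as a percentage of its CPM in vehicle HepG2 (log axis), with a point per gene. The band marks the median tumour share of the 3 libraries, 7.25% to 9.72%: NDRG1 lies at 164% and PLOD2 at 3.14%, and single markers reached 18.3%.

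Macrophages with Huh6 changed less. Of 39 members 1 was higher than alone, AK4, and 0 were lower (background 1.83%, 1.32% higher and 0.503% lower), and 3 higher and 1 lower had an unadjusted p under 0.05. AK4 was read at 3.21, 1.40 and 1.24 CPM with Huh6, above all libraries alone and beside 171 in vehicle Huh6. No library alone reached the level of the filter for AK4 either, and this call was lost after subtraction of tumour reads. The share of Huh6 reads was low, at 0.126% to 1.54% over the Huh6 co-cultures. BNIP3 was read at 17.3, 16.1 and 13.5 CPM with Huh6 (0.23 ± 0.26, adjusted p = 0.86), beside about 121 in vehicle Huh6. Compared directly, 22 members were higher with HepG2 than with Huh6 and 1 lower (background 16.7%, 9.13% higher and 7.55% lower), 2 of them, CA9 and PLOD2, with no library with Huh6 at the level of the filter. BNIP3 differed by 1.74 ± 0.25 (adjusted p = 3.5e-05) beside 169 CPM in vehicle HepG2 and 121 in vehicle Huh6, and MXI1 by 0.95 ± 0.11 beside 33.9 and 24.02. NDRG1 differed by 0.63 ± 0.18 beside 88.7 and 97.4 CPM, and LDHA by 0.86 ± 0.20 beside 1335 and 506. After subtraction 17 were higher, all among the 22 and CA9 still one of them, and HK2, PDK1, PLOD2, SLC16A3 and SLC2A1 were lost. Over all genes 1154 were then higher and 1566 lower. SLC2A1 turned from 1.07 to −1.501 there, beside partner levels of 1298 and 164 CPM.

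When the HepG2 cells had been given iMDK before co-culture, some members were read lower in the macrophages, unevenly between libraries. With 10 µM, 12 of 39 members were lower than with untreated HepG2 and 0 higher (background 3.34%, 2.7% lower). A lower value at an unadjusted p under 0.05 was reached by 26, and DESeq2 called 15 lower. Over all genes DESeq2 called 549 lower and 142 higher. This comparison shares its untreated HepG2 group with the comparison against macrophages alone, so the values are set side by side. BNIP3 was read at 41.0, 16.9 and 16.4 CPM with 10 µM (−1.07 ± 0.24, adjusted p = 0.014), LDHA at 454, 228 and 249 (−0.79 ± 0.20, adjusted p = 0.028) and ENO2 at 49.2, 34.9 and 31.4 (−0.99 ± 0.24, adjusted p = 0.024). In each case the first library lay closer to untreated HepG2 and the other two closer to macrophages alone, and no library reached the untreated group. P4HA1 was read at 77.5, 41.1 and 46.9 CPM (−0.79 ± 0.17, adjusted p = 0.011), MXI1 at 62.1, 46.9 and 47.2 (−0.41 ± 0.11, adjusted p = 0.048) and CA9 at 1.10, 0.0699 and 0.318 (−2.97 ± 0.62, adjusted p = 0.0078). The other 6 were AK4 (−1.69), P4HA2 (−0.73), ERO1A (−0.61), GAPDH (−0.38), BNIP3L (−0.37) and SLC16A3 (−0.36). Their levels in vehicle HepG2 are given above. Of these, AK4, ERO1A and SLC16A3 were no longer called after subtraction of the estimated tumour reads. Levels in HepG2 given iMDK at 10 µM are stated below only for BNIP3, LDHA and CA9. The count rested on single libraries: it was 18 without the first iMDK library, 1 without the second or the third or without the second untreated library, and 7 and 9 without the first and the third untreated library.

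Tumour RNA moved with this comparison. The hepatic markers summed to between 573 and 1189 CPM with 10 µM and between 1591 and 2119 with 5 µM, and the median share of HepG2 reads was 2.89%, 1.44% and 3.27% with 10 µM and 4.83%, 3.43% and 5.98% with 5 µM. In HepG2 grown alone with iMDK at 10 µM, BNIP3 stood at 132, 132 and 137 CPM, LDHA at 855, 867 and 849.5 and CA9 at 0.944, 0.894 and 0.848. After subtraction 8 members were lower with 10 µM, of which 7 were among the 12: AK4, BNIP3, ERO1A, LDHA and SLC16A3 were lost and PGK1 was gained. Over all genes 275 were then lower and 528 higher. With 5 µM, 0 members were called in either direction (background 0.0903%, 0.0194% higher and 0.071% lower), while 36 of 39 had a negative log2 change, 27 were lower at an unadjusted p under 0.05 and DESeq2 called 9 lower. Over all genes DESeq2 called 129 lower and 33 higher. In this comparison libraries with the same replicate number deviated together. With the replicate number as a block 22 members were lower, where 421 of all genes were lower and 193 higher. BNIP3 stood there at −0.96 (adjusted p = 0.0045) and LDHA at −0.74 (adjusted p = 0.0013). After subtraction 7 were lower with 5 µM, namely BNIP3L, ENO2, ERO1A, GAPDH, KDM3A, MXI1 and P4HA1. Over all genes 107 were lower and 225 higher in that fit. With iMDK-treated Huh6, 0 members passed the test at 5 µM (background 0.0129%, 0.00645% in either direction) or at 10 µM (background 0.0581%), 1 was lower at an unadjusted p under 0.05 at either dose, and DESeq2 called 0.

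VEGFA, HK2, GPI, PFKFB4 and SLC2A3 were highest in the first library in all 7 macrophage groups, with or without tumour cells. VEGFA was read at 270.4, 168 and 170.5 CPM alone and at 198, 137 and 132 with Huh6. It passed the test in none of the macrophage comparisons fitted without the replicate number. The labels do not state what the replicate numbers share.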

How the data were processed

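The labels' protocols describe poly(A) selection and a strand-preserving library kit for the 52 libraries. The authors deposited raw read counts per gene, 1 table for the tumour lines and 1 for the macrophages. Tools listed in the submitters' processing notes are featureCounts, STAR 2.7.3a, edgeR 3.36 and SAMtools 1.16.1, with the build GRCh38. For the counting step, version, strand setting and annotation release were not given in the sources used here. Counts of 1 gene can therefore be split with, or lost to, an overlapping gene or pseudogene.

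Depth ranged from 12623973 to 20043105 counts a library, and the 3 libraries a group limit the precision. Each cell line was fitted alone in edgeR 4.0.16 (R 4.3.3, limma 3.58.1) with filterByExpr (minimum count 10, total 15), TMM scaling and the quasi-likelihood test. P-values were adjusted by Benjamini-Hochberg over all genes, with a threshold of 0.05. The vehicle lines and the differences between the lines' changes were fitted on their own groups. A standard error is the size of the log2 change divided by the root of F. Intervals on counts are exact and cover counting error only. Exon lengths and overlaps come from GENCODE 29, and promoters from RefSeq. For the macrophages, tumour reads were estimated from hepatic markers at 100 CPM or more in the partner line and at 1% of that level or less in macrophages alone.

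The members and all gene lists were chosen with earlier results of these data known. The genes named are the members, and in the further lists up to 4 passing genes with the largest change, of which some results are not reported here. Only the comparison of macrophages with HepG2 given iMDK at 5 µM met the rule for pairing by replicate number (correlations of 0.386, 0.143 and 0.381 over genes, from the data and not the labels). Alternatives were DESeq2 1.42.0, RLE or library-size scaling, no filter, a replicate block, the compared groups alone, subtraction of tumour reads and each replicate left out in turn. The code was tested on simulated data.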

Additional observations from a re-analysis of the deposited data

Results flagged for a closer look

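The change under the same compound and dose differed between HepG2 and Huh6 for many members, by a test of the difference itself (edgeR's quasi-likelihood test of the interaction, Benjamini-Hochberg adjusted over all genes). With PKF118-310 at 0.2 µM, 13 members were more positive and 19 more negative in HepG2 (over all genes 28.3% and 28.1%). With iMDK the counts were 8 and 15 at 5 µM (15.6% and 17%) and 11 and 17 at 10 µM (21% and 20.7%). Differences between the lines were thus common over all genes and are not particular to the members.

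Members called in opposite directions in the lines stand apart from those that differed only in size. NDRG1 with PKF118-310 changed by 1.165 in HepG2 and −0.20 in Huh6, a difference of 1.36 ± 0.06 (adjusted p = 4.3e-25). At 10 µM of iMDK it changed by 0.20 and −0.17, a difference of 0.41 ± 0.06. The other 9 differences came from iMDK. GPI differed by −0.39 ± 0.05 at 5 µM and −0.65 ± 0.05 at 10 µM (adjusted p = 7.7e-16), and ENO1 by −0.37 ± 0.04 and −0.56 ± 0.04 (adjusted p = 2.5e-17), since both genes rose in Huh6 and fell in HepG2. At 5 µM, AK4 differed by −0.67 ± 0.05 (−0.58 in HepG2, 0.11 in Huh6) and KDM3A by 0.29 ± 0.06 (0.10 and −0.16). At 10 µM, HK2 differed by −0.40 ± 0.06 (−0.25 and 0.19), PGK1 by −0.28 ± 0.04 (−0.19 and 0.13) and GAPDH by −0.14 ± 0.04 (−0.07 and 0.12). The fall of GAPDH in HepG2 became 0.0044 when libraries were scaled by size alone.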

How the results depend on the processing

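Most members kept their direction and their side of the threshold under each alternative: 805 of 835 values with DESeq2, 844 of 849 with RLE scaling, 809 of 849 by library size alone, 795 of 849 without the low-count filter, 649 of 673 on the compared groups alone and 5499 of 5790 with a replicate left out. With the replicate block 800 of 849 did, and after subtraction of tumour reads 239 of 266. Without the filter the median over all genes in the comparison of the vehicle lines shifted by −0.14. By library size alone the changes of LDHA in Huh6 at 0.4 µM of PKF118-310 (−0.010) and of GAPDH in HepG2 with iMDK at 10 µM (0.0044) and the difference of the lines for GAPDH with PKF118-310 (0.011) turned sign. Subtraction turned SLC2A1 to −1.23 against macrophages alone and −1.501 against Huh6 co-culture. The causes were not tested.

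In Huh6 with PKF118-310 at 0.2 µM, 1 member was higher in DESeq2 and on the compared groups alone (165 and 209 over all genes). In macrophages with HepG2 against alone, 0 were lower after subtraction (1788 over all genes). With Huh6 against alone, 3 were higher and 1 lower without the filter, 2 and 1 with the replicate block and 0 higher after subtraction. Over all genes, 508 were higher and 181 lower without the filter, 633 and 294 with the block, and 28 and 39 after subtraction. VEGFA was gained as the lower one with the block (−0.37, adjusted p = 0.0020) and as higher with HepG2 than with Huh6 (0.33, adjusted p = 0.0015), and against macrophages alone the block added SLC2A3, HK2, GPI, PFKL, PFKP and TPI1 with HepG2. Between the co-cultures, 2 were lower with the block and 0 after subtraction (2346 and 1566 over all genes). With HepG2 given iMDK at 5 µM, 9 were lower in DESeq2, 18 without the filter, 22 with the block and 7 after subtraction. Over all genes 129, 247, 421 and 107 were lower in these fits. At 10 µM the rule for pairing by replicate number was not met by every pair of libraries (correlations of 0.0512, 0.235 and 0.271). There, 23 members were lower with the block, 18 without the filter, 8 after subtraction and 4 on the compared groups alone. Over all genes these were 984, 674, 275 and 288. With Huh6 given iMDK at 5 µM, 1 was lower without the filter and 1 with the block, and at 10 µM 2 and 1. Over all genes 103 and 18 were lower at 5 µM, and 156 and 69 at 10 µM. In the tumour lines the block moved no count of members by over 1.5 times.

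With each replicate left out, members lower in HepG2 at 10 against 5 µM of iMDK ranged from 0 to 2. In macrophages with HepG2 against alone, 19 to 22 were higher and 0 to 1 lower. With Huh6, 0 to 1 were higher. Between the co-cultures 16 to 20 were higher and 0 to 1 lower. With HepG2 given iMDK, 0 to 8 were lower at 5 µM (8 without the first iMDK library) and 1 to 18 at 10 µM. More positive in HepG2 than in Huh6 at 5 µM of iMDK were 5 to 8. Genes under about 1 CPM, such as PLOD2 and EGLN3 in Huh6, are limited by depth.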

Other observations

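Genes of pathways next to glycolysis were counted in the same way. Of 24 nuclear genes of the respiratory chain, 1 of 21 tested rose and 13 fell in HepG2 with PKF118-310, and 3 rose and 12 fell with iMDK at 10 µM. The gene that rose with PKF118-310 was NDUFA4L2 (1.72), a HIF target that lowers complex I activity. In Huh6 10 rose and 4 fell at 0.4 µM of PKF118-310, and 7 rose and 2 fell with iMDK at 10 µM. Gluconeogenesis, a liver function, had 0 of 3 tested genes higher and 3 lower in Huh6 at 0.4 µM of PKF118-310, with FBP1 at −2.44. In HepG2 with PKF118-310 1 of 4 rose and 2 fell, with G6PC1 at −1.86. These lists were chosen with results of these data known, and the background shares of called genes are those given for each comparison above.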
